A study of Chlorella sorokiniana with 6 samples.

Results

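Nucleotide metabolism of the green microalga *Chlorella sorokiniana* was described from the transcripts that the authors' MapMan annotation places in BIN 23, the class for the synthesis, salvage, interconversion and breakdown of purines and pyrimidines. Membership was decided by this annotation alone and not by any measured value, and 117 of the 18310 transcripts in the count table were members. RNA was sequenced from 3 mixotrophic cultures, kept at 100 µmol photons with 2% glucose added, and from 3 normal cultures, kept at 10 µmol photons with no glucose added, all in Bold's Basal Medium and harvested after 7 days. Light and glucose were changed together, so their effects cannot be told apart. As strain, the labels give a different number to each of the 6 samples. Normal replicates 1 to 3 are NIES-2168, NIES-2169 and NIES-2170, and mixotrophic replicates 1 to 3 are NIES-2171, NIES-2172 and NIES-2173. The methods of the study name NIES-2168 alone, and neither source explains the difference. If the labels are right, strain cannot be told apart from condition.

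Purine nucleotides are built step by step on ribose phosphate activated as PRPP, and the ring is closed to IMP before the route divides towards AMP and GMP. In the pyrimidine route the ring is made first, from carbamoyl phosphate and aspartate, and is joined to PRPP afterwards to give UMP and then CTP. Salvage enzymes return free bases and nucleosides to the nucleotide pool at a lower cost, kinases raise monophosphates to the triphosphates used for RNA, DNA and energy transfer, and ribonucleotide reductase supplies the deoxynucleotides. Breakdown runs through deaminases, xanthine dehydrogenase and uricase for purines, and through reduction and opening of the ring for pyrimidines. In plants and algae much of the synthesis takes place in the plastid.

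Libraries held 2535461 to 4444858 counts, of which BIN 23 took 1.07% to 1.11% in mixotrophic and 0.979% to 1.04% in normal libraries. On the TMM scale described below, the members summed to 10538 to 10627 CPM in mixotrophic libraries. The sums were 9601, 10971 and 10846 CPM in normal replicates 1, 2 and 3, so normal replicates 2 and 3 were above the mixotrophic libraries on that scale. Replicates 2 and 3 of each condition lay close together, whereas normal replicate 1 stood apart from the other normal cultures. Over the 82 members tested, the root mean square difference in log2 level was 0.238 between mixotrophic replicates 2 and 3 and 0.283 between normal replicates 2 and 3, but 0.865 and 0.939 between normal replicate 1 and the other normal libraries. Outside a group of 878 transcripts described below, counts of replicates 2 and 3 differed by little more than counting noise. The chi-square per degree of freedom was 1.21 for mixotrophic and 1.39 for normal cultures, against 51.1 between normal replicates 1 and 2. The small p-values over 4 libraries rest on that narrow spread. Another pattern followed the replicate number. In 878 transcripts both libraries of replicate 1 lay 2-fold or more below each of the other 4 libraries (after adding 0.5 CPM), and 4 members were among these, none of them called. These 878 transcripts were left out of the chi-square but stayed in both fits. Their summed level was 13706 and 19077 CPM in mixotrophic replicates 2 and 3, and 22176 and 14932 CPM in normal replicates 2 and 3. The supplementary expression data of the study list only replicates 2 and 3, and earlier work on these data had used the same 4 libraries. The main comparison therefore took these 4, a choice made when normal replicate 1 was already known to stand apart. A second fit took all 6. Both were made with edgeR's quasi-likelihood test over all transcripts, and each value is given for the 4 libraries first. Fold changes are log2 values of mixotrophic over normal ± standard error. The standard error was derived from the test, as the absolute log2 fold change divided by the square root of its F statistic. The p-values were adjusted by the Benjamini-Hochberg method over all transcripts tested, and transcripts with an adjusted p under 0.05 are termed called. Levels are CPM, counts scaled to a TMM-adjusted library total of 1000000, given in the order of replicates 1, 2 and 3. They are not divided by transcript length, so levels of different transcripts should not be set against each other.

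More members were higher than lower in mixotrophic cultures. Of 82 members tested over 4 libraries, 45 rose (54.9%, against 28.6% of all 12389 transcripts tested), 18 fell (21.95%, against 29.0%) and 19 were not called. Over all 6 libraries 30 of 82 rose (36.6%, against 13.3% of 12318) and 10 fell (12.2%, against 15.2%). The median log2 fold change of the members was 0.57 over 4 libraries, against -0.019 for all transcripts tested, and 0.44 against -0.042 over all 6. All 3 mixotrophic libraries lay above all 3 normal ones in 40 members (48.8%, against 24.5% of all transcripts) and below them in 14 (17.1%, against 24.1%). Counts over all 6 libraries depended on single libraries, with 43 higher and 20 lower when normal replicate 1 was left out. They were 18 and 5, 19 and 4, and 20 and 5 when mixotrophic replicate 1, 2 or 3 was left out, and 22 and 6 when it was either of the other normal replicates. Leaving out 1 of the 4 libraries gave 40 to 45 higher and 15 to 20 lower, but each such fit holds 1 library in an arm and takes its spread from the other condition. Of the 33 named transcripts called over 6 libraries, 21 were called whichever library was left out. The transcripts g16660, g695, g1093, g15942, g7002, g10981 and g11813 lost that call each time a library other than normal replicate 1 was left out. The transcripts g14728, g3892, g1975, g2456 and g2457 lost it without some of those libraries.

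**Figure D1:**
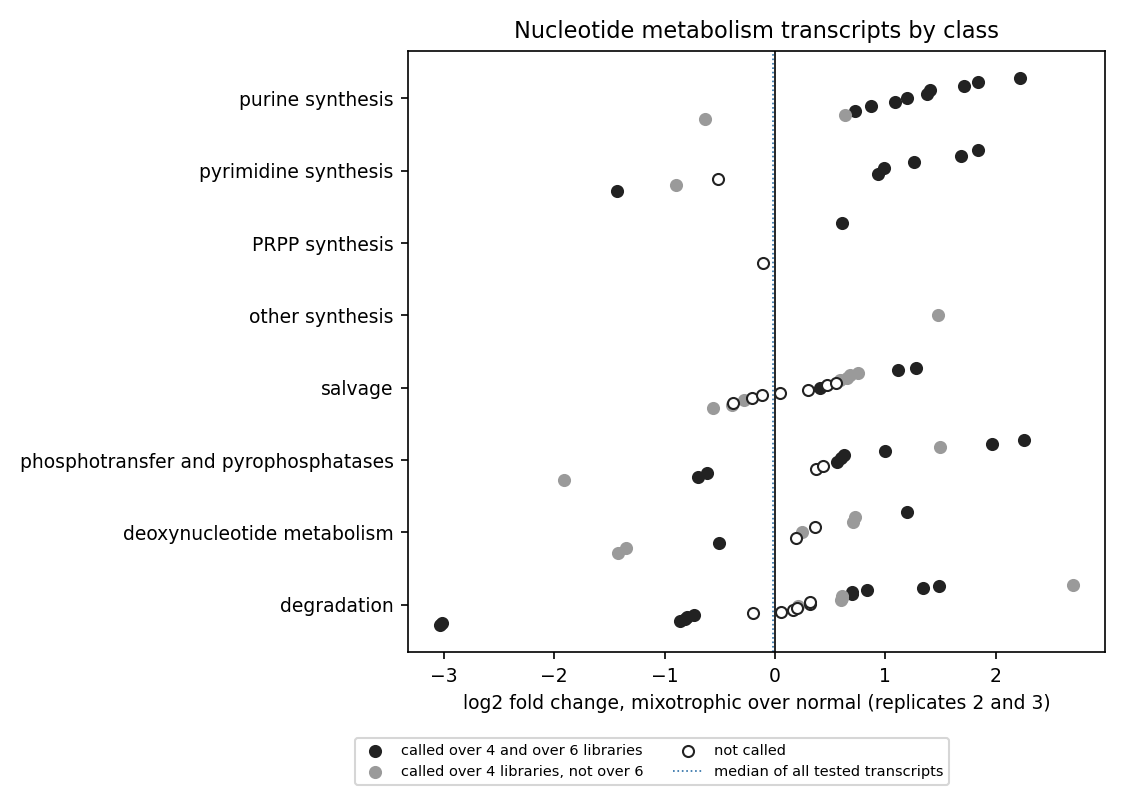
Mixotrophic over normal log2 fold change (x axis) of each of the 82 members tested in replicates 2 and 3, by class (rows). Black points were called in both fits, grey points over 4 libraries only, and open points were not called. The dotted line is the median of all 12389 transcripts tested, at -0.019. Purine synthesis has 10 points right of 0 and 1 left of it, whereas degradation and deoxynucleotide metabolism lie on both sides.

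Of the 117 members, 32 had no count in any library, and 5 of the 41 BINs held only such transcripts. These were aspartate transcarbamoylase (2 transcripts), which commits carbamoyl phosphate to pyrimidines, SAICAR synthetase (1) of the purine route, beta-ureidopropionase (3), the last step of pyrimidine breakdown, adenine phosphoribosyltransferase (2), which salvages adenine, and dUTP diphosphatase (2), which keeps uracil out of DNA. The enzymes themselves therefore have no value. The members came from 76 assembly components, and 80 of them shared a component with another transcript, which can be a close variant or a predicted gene with another annotation on the same assembled sequence. The counts of 3 components with an uncounted enzyme came only from transcripts annotated otherwise. Summed, these were at -1.59 over 4 libraries (adjusted p = 5.82e-14) and -1.31 over 6 (adjusted p = 0.0294) for the component of SAICAR synthetase (g2546), from transcripts with no assigned function. The component of aspartate transcarbamoylase (g15554 and g15556), also counted only through unassigned transcripts, was at -0.58 over 4 (adjusted p = 0.00485) and -0.37 over 6 (adjusted p = 0.193). That of adenine phosphoribosyltransferase (g9841 and g9844), counted only through transcripts annotated as a ribosomal protein, was at 1.63 over 4 (adjusted p = 6.67e-06) and 1.75 over 6 (adjusted p = 0.00247). The descriptions of 8 members were not used here, and these are named by their BIN only.

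Most measured transcripts of purine synthesis rose, AIR carboxylase was lower over 4 libraries, and SAICAR synthetase had no count. All 11 transcripts tested were called over 4 libraries, with a median log2 fold change of 1.19. Of these, 10 were higher (90.9%, against 28.6% of all transcripts) and 1 lower (9.09%, against 29.0%). Over all 6 libraries 9 were higher (81.8%, against 13.3%) and none lower by edgeR (against 15.2%). There 0 were lower at an unadjusted p under 0.05 and 0 by DESeq2, and with the replicate number as a block 7 were higher. Without normal replicate 1 the numbers were 10 and 1, and without any other single library 4 or 5 were higher. The summed level of the 13 transcripts was 1971 to 2038 CPM in mixotrophic cultures, against 870.4 to 1234 CPM in normal cultures, the highest normal value in replicate 1.

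The first committed step, amidophosphoribosyltransferase (g695), which puts the first nitrogen on PRPP, had 219, 211 and 221 CPM in mixotrophic cultures, against 155, 102 and 84.9 CPM in normal cultures. The groups did not overlap, and normal replicate 1 lay between them. Its log2 fold change was 1.19 ± 0.086 (adjusted p = 9.17e-13) over 4 libraries and 0.92 ± 0.23 (adjusted p = 0.0317) over 6. GAR synthetase (g11004), which adds glycine, had 95.7, 91.2 and 97.3 CPM in mixotrophic cultures, against 43.8, 30.4 and 39.98 CPM in normal cultures, a change of 1.38 ± 0.13 (adjusted p = 1.3e-10) over 4 libraries and 1.31 ± 0.16 (adjusted p = 0.00346) over 6. FGAR amidotransferase, which brings in a further nitrogen from glutamine, was represented by g3288 and g3286 of the same component. The levels of g3288 were 199, 198 and 199.9 CPM in mixotrophic cultures, against 185, 123 and 129 CPM in normal cultures, and here normal replicate 1 came within a small distance of the mixotrophic values. Its fold change was 0.63 ± 0.077 (adjusted p = 3.72e-08) over 4 libraries and 0.45 ± 0.18 (adjusted p = 0.111) over 6, while g3286 was at 0.73 ± 0.078 (adjusted p = 3.3e-09) and 0.58 ± 0.15 (adjusted p = 0.0322), the value over 6 having an adjusted p of 0.0655 with the replicate number as a block.

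AIR synthase (g17730), which closes the imidazole ring, had the largest fold change of the route over 4 libraries, with 99.6, 101 and 97.01 CPM in mixotrophic cultures, against 30.04, 15.4 and 25.2 CPM in normal cultures. All mixotrophic values were more than 3 times the highest normal one. The log2 fold change was 2.22 ± 0.15 (adjusted p = 1.57e-13) over 4 libraries and 2.06 ± 0.24 (adjusted p = 0.00329) over 6. In contrast, the next enzyme, AIR carboxylase (g9018), had 56.5, 56.03 and 48.8 CPM in mixotrophic cultures, against 31.1, 77.9 and 82.6 CPM in normal cultures. It fell over 4 libraries (-0.63 ± 0.12, adjusted p = 2.82e-05), but normal replicate 1 was the lowest of all 6 libraries, and over 6 the value was -0.25 ± 0.36 (adjusted p = 0.685). SAICAR lyase (g15942), which acts both before IMP and on the way to AMP, had 186, 188 and 185 CPM in mixotrophic cultures, against 138, 95.8 and 104 CPM in normal cultures, and changed by 0.87 ± 0.083 (adjusted p = 2.8e-10) over 4 libraries and 0.72 ± 0.16 (adjusted p = 0.0212) over 6.

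AICAR transformylase (g14728), annotated as the bifunctional enzyme that adds the last carbon and closes the ring to IMP, had 447, 417 and 420.3 CPM in mixotrophic cultures, against 223, 112 and 117 CPM in normal cultures. Its fold change was 1.84 ± 0.071 (adjusted p = 3.99e-19) over 4 libraries and 1.502 ± 0.29 (adjusted p = 0.0139) over 6, with normal replicate 1 again between the groups. Both branches from IMP rose. Adenylosuccinate synthase (g8809), the entry to AMP, had 173, 152 and 158 CPM in mixotrophic cultures, against 41.3, 59.97 and 56.04 CPM in normal cultures, and normal replicate 1 was the lowest library. It changed by 1.401 ± 0.10 (adjusted p = 2.23e-13) over 4 libraries and 1.62 ± 0.17 (adjusted p = 0.00233) over 6. On the GMP branch, IMP dehydrogenase (g1093) had 161, 175 and 146 CPM in mixotrophic cultures, against 122, 67.9 and 79.96 CPM in normal cultures, and changed by 1.09 ± 0.10 (adjusted p = 3.86e-10) over 4 libraries and 0.83 ± 0.23 (adjusted p = 0.0446) over 6, with adjusted p = 0.0523 over 6 when the replicate number was a block. GMP synthetase (g1116), the following enzyme, had 199, 194 and 192 CPM in mixotrophic cultures, against 98.9, 57.5 and 58.7 CPM in normal cultures, with a log2 fold change of 1.71 ± 0.091 (adjusted p = 7.74e-16) over 4 libraries and 1.44 ± 0.23 (adjusted p = 0.00847) over 6. A second IMP dehydrogenase transcript, g12983, had 28 counts in all and was not tested.

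**Figure D2:**
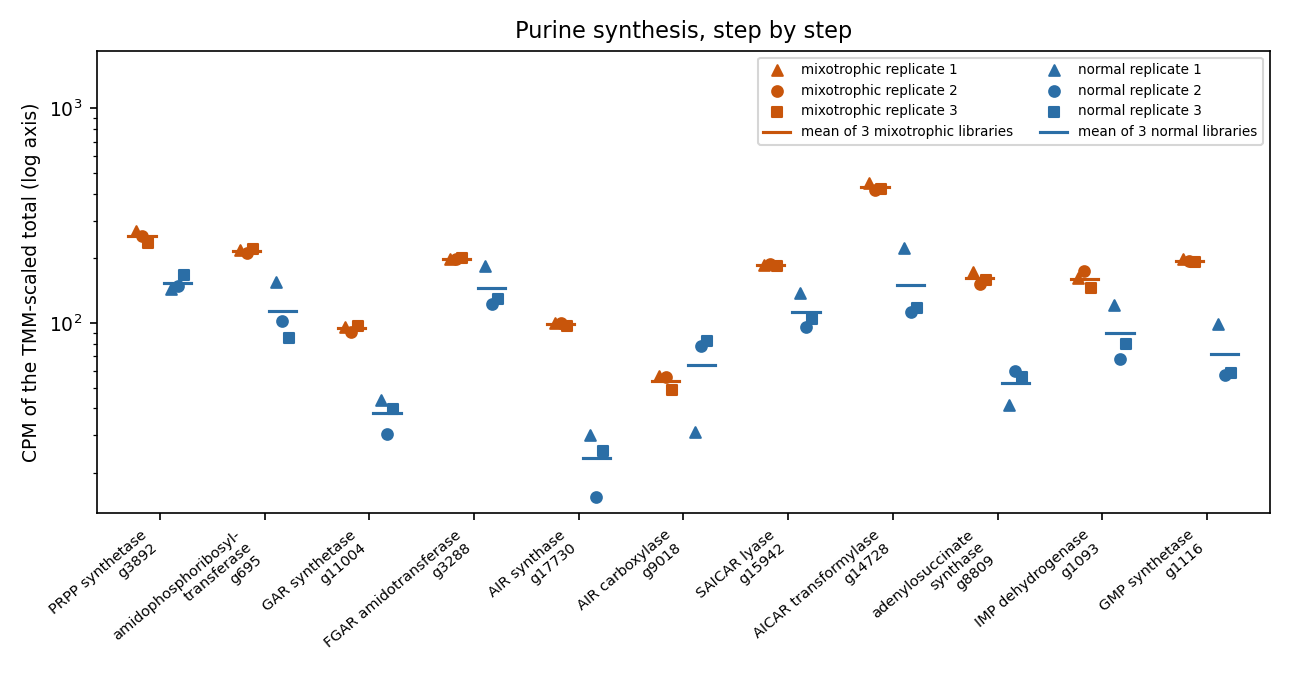
Levels in CPM of the TMM-scaled total (log axis) of the PRPP synthetase and purine synthesis transcripts in the order of the route, with mixotrophic libraries left (orange) and normal libraries right (blue) for each. Symbols mark the replicate and lines the mean of 3 libraries. Mixotrophic means are above normal ones at every step shown but AIR carboxylase (g9018), and normal replicate 1 (triangle) often lies between the groups.

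PRPP, the activated sugar that both routes draw on, is made by PRPP synthetase. Its transcript g3892 had 267, 255 and 237 CPM in mixotrophic cultures, against 144, 149 and 167 CPM in normal cultures, with no overlap, and changed by 0.61 ± 0.077 (adjusted p = 7.83e-08) over 4 libraries and 0.72 ± 0.11 (adjusted p = 0.00664) over 6. Of the other 3 transcripts of this BIN, 2 had no count. The remaining one, g10241, was low in replicate 1 of both conditions, with 2.802, 10.6 and 18.5 CPM in mixotrophic cultures, against 3.31, 21.2 and 10.2 CPM in normal cultures, and was not called. A glutamine amidotransferase-like transcript of unspecified synthesis, g17218, had 36, 33.7 and 30.3 CPM in mixotrophic cultures, against 32.2, 7.91 and 14.1 CPM in normal cultures. It rose over 4 libraries (1.48 ± 0.22, adjusted p = 1.47e-06) but not over 6 (0.86 ± 0.48, adjusted p = 0.235). Normal replicate 1 was as high as the mixotrophic cultures, and the summed counts of its component had a log2 fold change of 0.061 over 4 libraries.

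The pyrimidine route was divided, with its first enzyme lower over 4 libraries and each later enzyme with a called transcript higher in mixotrophic cultures. Of 8 transcripts tested over 4 libraries 5 rose (62.5%) and 2 fell (25%), against 28.6% and 29.0% of all transcripts. Of 7 tested over 6 libraries 5 rose (71.4%) and 1 fell (14.3%), against 13.3% and 15.2%. The shares that fell were near those of all transcripts. In both fits 5 were higher whichever library was left out. Over 6 libraries none was lower when any library other than normal replicate 1 was left out, and 2 were lower without that one. The summed level of the 11 transcripts was 1828 to 1839 CPM in mixotrophic cultures, against 1777, 3431 and 3282 CPM in normal cultures, most of it from the first enzyme. Carbamoyl phosphate synthetase supplies both pyrimidines and arginine. Its large subunit (g16660) had 851, 845 and 871 CPM in mixotrophic cultures, against 1050.0, 2316 and 2223 CPM in normal cultures. Mixotrophic values were alike, and normal replicate 1 was closer to them than to the other normal libraries. The fold change was -1.43 ± 0.048 (adjusted p = 1.82e-20) over 4 libraries and -1.12 ± 0.30 (adjusted p = 0.037) over 6. The small subunit (g6293) had 463, 487 and 473 CPM in mixotrophic cultures, against 473, 911 and 845 CPM in normal cultures, so that normal replicate 1 lay within the mixotrophic range. The fold change was -0.89 ± 0.056 (adjusted p = 3.57e-14) over 4 libraries and -0.65 ± 0.25 (adjusted p = 0.101) over 6.

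Dihydroorotase (g4497), which closes the pyrimidine ring, had 102, 85.3 and 83.8 CPM in mixotrophic cultures, against 46.3, 43.3 and 40.6 CPM in normal cultures, and changed by 0.99 ± 0.12 (adjusted p = 2.49e-08) over 4 libraries and 1.05 ± 0.13 (adjusted p = 0.00344) over 6. With the counts of its component of 3 transcripts summed, the value over 4 libraries was 0.50. Dihydroorotate dehydrogenase, which oxidises the ring to orotate, had 2 called transcripts of the same component. The levels of g10256 were 71.8, 72.7 and 74.9 CPM in mixotrophic cultures, against 33.6, 17.9 and 22.3 CPM in normal cultures, and its fold change was 1.84 ± 0.15 (adjusted p = 6.63e-12) over 4 libraries and 1.56 ± 0.24 (adjusted p = 0.00687) over 6. Its partner g10258 was at 1.68 ± 0.14 (adjusted p = 3.22e-11) and 1.42 ± 0.23 (adjusted p = 0.00783). The bifunctional UMP synthase (g3909), which joins orotate to PRPP and removes the carboxyl group, had 126, 124 and 116 CPM in mixotrophic cultures, against 57.6, 59.6 and 63.6 CPM in normal cultures. Here the 3 normal cultures were close to each other, and the change was 0.94 ± 0.10 (adjusted p = 4.45e-09) over 4 libraries and 1.02 ± 0.10 (adjusted p = 0.00211) over 6. A second transcript of this BIN, g6590, best matched by a tobacco protein, was low in replicate 1 of both conditions and was not called (adjusted p = 0.435 over 4 libraries). CTP synthetase (g4905), which makes CTP from UTP, had 146, 146 and 143 CPM in mixotrophic cultures, against 80.5, 56.6 and 61.6 CPM in normal cultures, and changed by 1.26 ± 0.10 (adjusted p = 3.43e-12) over 4 libraries and 1.13 ± 0.16 (adjusted p = 0.00505) over 6.

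**Figure D3:**
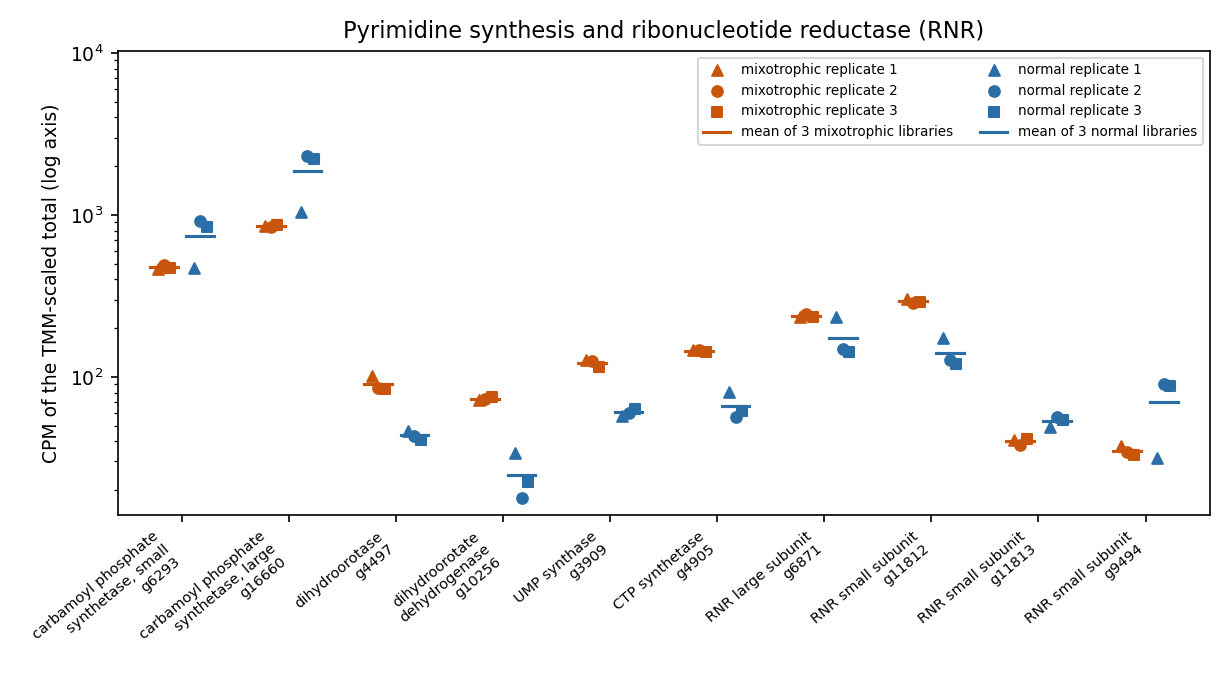
Levels in CPM of the TMM-scaled total (log axis) of pyrimidine synthesis transcripts in the order of the route, followed by ribonucleotide reductase (RNR) transcripts, drawn as in the plot of the purine route. Both subunits of carbamoyl phosphate synthetase are lower in mixotrophic cultures than in normal replicates 2 and 3, the other pyrimidine enzymes shown are higher than in all normal cultures, and the RNR transcripts differ in direction.

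In salvage, 7 of 17 transcripts rose (41.2%) and 3 fell (17.6%) over 4 libraries, against 28.6% and 29.0% of all transcripts. Over 6 libraries 3 rose (17.6%) and none fell by edgeR, against 13.3% and 15.2%. The share higher over 6 was thus near that of all transcripts. Over 6 libraries 2 were lower at an unadjusted p under 0.05, and 0 by DESeq2. Among them, 2 kinase transcripts stood out by size. Adenosine kinase (g16442), which turns adenosine into AMP, had 517, 515 and 507 CPM in mixotrophic cultures, against 158, 217 and 199.6 CPM in normal cultures, and its fold change was 1.28 ± 0.065 (adjusted p = 2.56e-16) over 4 libraries and 1.42 ± 0.14 (adjusted p = 0.00194) over 6. A transcript of the phosphoribulokinase and uridine kinase family (g7429) had 414, 415 and 447 CPM in mixotrophic cultures, against 211, 186 and 205 CPM in normal cultures, and changed by 1.11 ± 0.067 (adjusted p = 1.26e-14) over 4 libraries and 1.08 ± 0.10 (adjusted p = 0.00158) over 6. Neither gene overlapped between conditions. Thymidine kinase (g2833) had 27.8, 31.2 and 30.6 CPM in mixotrophic cultures, against 32.2, 30.8 and 34.7 CPM in normal cultures, and was not called, at -0.11 ± 0.16 (adjusted p = 0.56) and -0.13 ± 0.12 (adjusted p = 0.48).

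Uracil phosphoribosyltransferases, which make UMP from uracil, had smaller differences. The transcript with both uridine kinase and uracil phosphoribosyltransferase activities by annotation (g15835) had 65.7, 72.01 and 52.99 CPM in mixotrophic cultures, against 68.1, 39.98 and 39 CPM in normal cultures. Normal replicate 1 lay within the mixotrophic range, and the log2 fold change was 0.65 ± 0.15 (adjusted p = 0.000371) over 4 libraries and 0.37 ± 0.26 (adjusted p = 0.343) over 6, not called over 4 libraries without mixotrophic replicate 2 (adjusted p = 0.0565). Its component of 7 transcripts, summed, had a log2 fold change of 0.046 over 4. A plastid type enzyme by its Arabidopsis match (g4392) was at 0.41 ± 0.13 (adjusted p = 0.00858) and 0.45 ± 0.10 (adjusted p = 0.0251), with adjusted p = 0.0961 over 6 with the replicate number as a block. A 5'-nucleotidase of the HAD superfamily (g15655), which removes phosphate from nucleotides, had 61.9, 58.2 and 57.8 CPM in mixotrophic cultures, against 124, 68.3 and 80.3 CPM in normal cultures. It fell over 4 libraries (-0.39 ± 0.12, adjusted p = 0.00484), but not without normal replicate 3 (adjusted p = 0.127), and over 6 was at -0.62 ± 0.23 (adjusted p = 0.0992).

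NUDIX hydrolases, which cleave a range of nucleoside diphosphate derivatives, differed in direction. An ADP-ribose pyrophosphatase homolog (g13510, NUDT2) had 58.4, 67.8 and 63.9 CPM in mixotrophic cultures, against 58.98, 37.5 and 42.9 CPM in normal cultures, a log2 fold change of 0.68 ± 0.13 (adjusted p = 3.79e-05) over 4 libraries and 0.44 ± 0.19 (adjusted p = 0.138) over 6. The homologs g9050 (NUDT4) and g8564 (NUDX15) fell over 4 libraries, at -0.28 ± 0.088 (adjusted p = 0.00693) and -0.56 ± 0.18 (adjusted p = 0.00932). The 6-library values were -0.49 ± 0.20 (adjusted p = 0.115) and -0.25 ± 0.25 (adjusted p = 0.508), and normal replicate 1 lay above the other libraries for g9050 (199 CPM) and below them for g8564 (17.4 CPM). Both lost the call over 4 libraries without normal replicate 3 (adjusted p = 0.0579 and 0.131), and g9050 also without mixotrophic replicate 3 (adjusted p = 0.106). In all, salvage had 0 lower transcripts over 4 libraries without normal replicate 3 and 0 by DESeq2 on all 4, against 5 without normal replicate 2.

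Kinases and pyrophosphatases had 12 transcripts tested. Over 4 libraries 7 rose (58.3%) and 3 fell (25%), against 28.6% and 29.0% of all transcripts. Over 6 libraries 6 rose (50%) and 2 fell (16.7%), against 13.3% and 15.2%, so the shares that fell were near those of all transcripts. The summed level of the 16 transcripts was 2096 to 2128 CPM in mixotrophic cultures, against 2263 to 2524 CPM in normal cultures. Adenylate kinases, which balance AMP, ADP and ATP, did not move together. The plastid type g11758 had 73.1, 68.1 and 58.3 CPM in mixotrophic cultures, against 25.1, 17.1 and 15.1 CPM in normal cultures, and changed by 1.96 ± 0.16 (adjusted p = 2.07e-11) over 4 libraries and 1.79 ± 0.22 (adjusted p = 0.0038) over 6. Another plastid type, g7002, had 375, 405 and 383 CPM in mixotrophic cultures, against 165, 254 and 257 CPM in normal cultures, and changed by 0.60 ± 0.065 (adjusted p = 3.65e-09) over 4 libraries and 0.78 ± 0.19 (adjusted p = 0.0286) over 6, and the type g7031, similar to adenylate kinase B of rice, by 0.62 ± 0.071 (adjusted p = 1.25e-08) over 4 libraries and 0.67 ± 0.087 (adjusted p = 0.00435) over 6. In the opposite direction, g5438 of the adenylate kinase family had 154, 157 and 148 CPM in mixotrophic cultures, against 158, 590.1 and 542 CPM in normal cultures. Normal replicate 1 was almost equal to the mixotrophic libraries, and the fold change was -1.91 ± 0.068 (adjusted p = 5.88e-20) over 4 libraries and -1.49 ± 0.48 (adjusted p = 0.0636) over 6.

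Guanylate kinase, which raises GMP to GDP, was lower in mixotrophic cultures in both its transcripts. The transcript g8952 had 577, 561 and 580.1 CPM in mixotrophic cultures, against 1073, 905 and 909.7 CPM in normal cultures, and changed by -0.69 ± 0.051 (adjusted p = 1.55e-12) over 4 libraries and -0.75 ± 0.10 (adjusted p = 0.00413) over 6, and g8953 of the same component by -0.61 ± 0.06 (adjusted p = 6.62e-10) over 4 libraries and -0.70 ± 0.10 (adjusted p = 0.00574) over 6. All 3 normal cultures were above all 3 mixotrophic ones. This stands opposite to the purine enzymes that lead to GMP, which rose. Nucleoside diphosphate kinase (g4208), which makes the triphosphates, had 97.6, 89.2 and 93.6 CPM in mixotrophic cultures, against 38.9, 44.98 and 45.2 CPM in normal cultures, and changed by 0.99 ± 0.11 (adjusted p = 1.03e-08) over 4 libraries and 1.12 ± 0.11 (adjusted p = 0.00219) over 6. Uridylate kinase g1659 was at 0.56 ± 0.21 (adjusted p = 0.0213) and 0.66 ± 0.16 (adjusted p = 0.028), with adjusted p = 0.0742 over 6 under the block, and its partner g1660 at 0.38 ± 0.22 (adjusted p = 0.14) and 0.61 ± 0.20 (adjusted p = 0.0658). Thymidylate kinase (g6511), needed for dTTP, had 34.1, 37.1 and 37.6 CPM in mixotrophic cultures, against 28.7, 11.7 and 14.1 CPM in normal cultures. It rose over 4 libraries (1.497 ± 0.19, adjusted p = 8.51e-08) and was at 0.98 ± 0.34 (adjusted p = 0.0815) over 6. The soluble inorganic pyrophosphatase of the plastid (g10981), matched to PPase 1 of *Chlamydomonas reinhardtii*, removes the pyrophosphate that biosynthetic reactions release. Its levels were 199, 183 and 187 CPM in mixotrophic cultures, against 98.9, 39.98 and 36.4 CPM in normal cultures, and its fold change was 2.26 ± 0.10 (adjusted p = 1.19e-17) over 4 libraries and 1.69 ± 0.40 (adjusted p = 0.0275) over 6.

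Deoxynucleotide metabolism had few transcripts, with calls in both directions. Of 9 tested, 4 rose (44.4%) and 3 fell (33.3%) over 4 libraries, against 28.6% and 29.0% of all transcripts, and 1 rose and 1 fell over 6 (11.1% each), against 13.3% and 15.2%, so that the share lower over 4 and both shares over 6 were near those of all transcripts. Ribonucleotide reductase, which reduces ribonucleotides to deoxyribonucleotides, has a large and a small subunit. The large subunit transcripts g6871 and g6870 share a component. The levels of g6871 were 233, 245 and 234 CPM in mixotrophic cultures, against 233, 148 and 142 CPM in normal cultures, so that normal replicate 1 came close to the mixotrophic cultures. Over 4 libraries g6871 and g6870 rose by 0.70 ± 0.075 (adjusted p = 3.08e-09) and 0.72 ± 0.079 (adjusted p = 5.13e-09), and the 6-library values were 0.44 ± 0.21 (adjusted p = 0.172) and 0.42 ± 0.23 (adjusted p = 0.235).

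The small subunit was represented by 2 components with different behaviour. The transcript g11812 had 302, 286 and 290.2 CPM in mixotrophic cultures, against 174, 127 and 121 CPM in normal cultures, and changed by 1.199 ± 0.074 (adjusted p = 2.25e-14) over 4 libraries and 1.06 ± 0.16 (adjusted p = 0.0073) over 6. Its neighbour in the same component, g11813, had 40.5, 37.8 and 41.2 CPM in mixotrophic cultures, against 48.8, 56.2 and 54.4 CPM in normal cultures. It fell, at -0.51 ± 0.13 (adjusted p = 0.00135) over 4 libraries and -0.41 ± 0.11 (adjusted p = 0.0397) over 6, with adjusted p = 0.129 over 6 under the block and adjusted p = 0.0541 by DESeq2 over 4. The summed component rose, by 0.80 over 4, and most of its counts were those of g11812. In the other component, g9494 had 37.3, 34.4 and 33.1 CPM in mixotrophic cultures, against 31.7, 90.4 and 88.2 CPM in normal cultures. Normal replicates 2 and 3 were far above the rest, and normal replicate 1 was the lowest library. The values were -1.42 ± 0.12 (adjusted p = 2.5e-11) over 4 libraries and -1.0002 ± 0.40 (adjusted p = 0.113) over 6, and for g9493 -1.35 ± 0.12 (adjusted p = 7.15e-11) over 4 libraries and -0.95 ± 0.39 (adjusted p = 0.122) over 6. Among the other transcripts of this class, pseudouridine synthase g2871 was not called (0.36 ± 0.22, adjusted p = 0.17, and 0.30 ± 0.22, adjusted p = 0.373). The cytosine deaminase transcript g5682 rose slightly over 4 libraries (0.25 ± 0.10, adjusted p = 0.0386), but not with the replicate number as a block (adjusted p = 0.0772), without normal replicate 2 (adjusted p = 0.393) or without mixotrophic replicate 2 (adjusted p = 0.443), and was at 0.077 ± 0.21 (adjusted p = 0.849) over 6.

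Breakdown held the members with the most negative fold changes, and others that rose. Of 22 transcripts tested over 4 libraries 10 rose (45.5%) and 6 fell (27.3%), against 28.6% and 29.0% of all transcripts, so the share that fell was near that of all transcripts. Of 23 tested over 6 libraries 5 rose (21.7%) and 6 fell (26.1%), against 13.3% and 15.2%. The 6 that fell were pairs from shared components, g2456 with g2457, g6825 with g6828 and g8705 with g8707. They are thus not 6 separate genes by assembly. Among the 5 that rose, g1973 and g1975 also share a component. The largest fall over 4 libraries was that of g2456, of the adenosine/AMP deaminase family, whose members remove the amino group from adenine nucleotides or nucleosides. It had 30.4, 28.02 and 28.9 CPM in mixotrophic cultures, against 74.96, 229 and 230.0 CPM in normal cultures. Every normal culture was more than 2 times above every mixotrophic one, and normal replicate 1 was the lowest of the normal cultures. The change was -3.04 ± 0.10 (adjusted p = 5.42e-21) over 4 libraries and -2.61 ± 0.45 (adjusted p = 0.00981) over 6. Its component partner g2457 had 29.5, 22.4 and 31.4 CPM in mixotrophic cultures, against 79.1, 210.3 and 214 CPM in normal cultures, and changed by -3.02 ± 0.11 (adjusted p = 1.02e-19) over 4 libraries and -2.59 ± 0.42 (adjusted p = 0.00814) over 6. AMP deaminase, which returns AMP to IMP, fell as well, with 94.8, 86.5 and 86.6 CPM in mixotrophic cultures, against 111, 152 and 158 CPM in normal cultures for g8705. That transcript was at -0.86 ± 0.086 (adjusted p = 7.49e-10) over 4 libraries and -0.65 ± 0.16 (adjusted p = 0.0302) over 6 and its partner g8707 at -0.79 ± 0.086 (adjusted p = 4.4e-09) over 4 libraries and -0.64 ± 0.18 (adjusted p = 0.0474) over 6, with adjusted p = 0.0733 and 0.0664 over 6 under the block. Another transcript annotated with the adenosine/AMP deaminase family, g1903, was not called (-0.20 ± 0.18, adjusted p = 0.362, and -0.14 ± 0.16, adjusted p = 0.58), nor was g5104, which carries the domain of that family (0.32 ± 0.19, adjusted p = 0.163, and 0.31 ± 0.15, adjusted p = 0.18).

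The late steps of purine breakdown went in opposite directions. Xanthine dehydrogenase, which oxidises xanthine to urate, had 218, 215 and 212 CPM in mixotrophic cultures, against 386, 374 and 365 CPM in normal cultures for g6825, so that all 3 normal cultures were alike and above the mixotrophic ones. Its fold change was -0.81 ± 0.064 (adjusted p = 6.6e-12) over 4 libraries and -0.80 ± 0.084 (adjusted p = 0.00236) over 6, and that of g6828 of the same component -0.73 ± 0.066 (adjusted p = 1.14e-10) over 4 libraries and -0.74 ± 0.095 (adjusted p = 0.00412) over 6. Uricase, which oxidises urate further, was higher instead, with 98.5, 98.5 and 89.7 CPM in mixotrophic cultures, against 52.9, 33.7 and 32.8 CPM in normal cultures for g1973. This transcript changed by 1.48 ± 0.12 (adjusted p = 2.14e-11) over 4 libraries and 1.26 ± 0.21 (adjusted p = 0.00934) over 6 and g1975 of its component by 1.34 ± 0.14 (adjusted p = 1.02e-09) over 4 libraries and 1.13 ± 0.21 (adjusted p = 0.0119) over 6.

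Apyrase (g16422), which hydrolyses nucleoside triphosphates and diphosphates, had 141, 139.6 and 145 CPM in mixotrophic cultures, against 90.1, 84.5 and 87.8 CPM in normal cultures, and changed by 0.70 ± 0.088 (adjusted p = 7.91e-08) over 4 libraries and 0.69 ± 0.092 (adjusted p = 0.00459) over 6. Cytidine deaminase (g3511), which makes uridine from cytidine, was at 0.69 ± 0.13 (adjusted p = 3.22e-05) over 4 libraries and 0.77 ± 0.12 (adjusted p = 0.00846) over 6. Among the pyrimidine steps, the uridine nucleosidase homolog g14872, which splits uridine into base and sugar, had 67.9, 70.8 and 62.5 CPM in mixotrophic cultures, against 40.2, 34.98 and 38.7 CPM in normal cultures, and changed by 0.83 ± 0.13 (adjusted p = 3.73e-06) over 4 libraries and 0.82 ± 0.11 (adjusted p = 0.00529) over 6. The reductive steps had small differences. Dihydrouracil dehydrogenase (g16255) was at 0.21 ± 0.081 (adjusted p = 0.0298) over 4 libraries and 0.30 ± 0.11 (adjusted p = 0.0933) over 6, with no call over 4 libraries without either mixotrophic replicate (adjusted p = 0.0804 and 0.1, without replicates 2 and 3 in turn) or without normal replicate 2 (adjusted p = 0.214), and dihydropyrimidinase (g6815) was not called (0.17 ± 0.13, adjusted p = 0.274, and 0.15 ± 0.11, adjusted p = 0.366). The highest fold change of the class over 4 libraries, noticed after the values were seen, was that of g9594, of the cytidine/deoxycytidylate deaminase family, with 11.2, 12.04 and 12.6 CPM in mixotrophic cultures, against 18.5, 1.67 and 1.97 CPM in normal cultures. The 2 low normal libraries held 4 and 6 counts and normal replicate 1 was the highest library, and the values were 2.701 ± 0.40 (adjusted p = 1.24e-06) over 4 libraries and 0.66 ± 0.89 (adjusted p = 0.65) over 6. The summed counts of its component were at -0.33 over 4 libraries (adjusted p = 0.191) and -0.41 over 6 (adjusted p = 0.0947), opposite in sign.

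**Figure D4:**
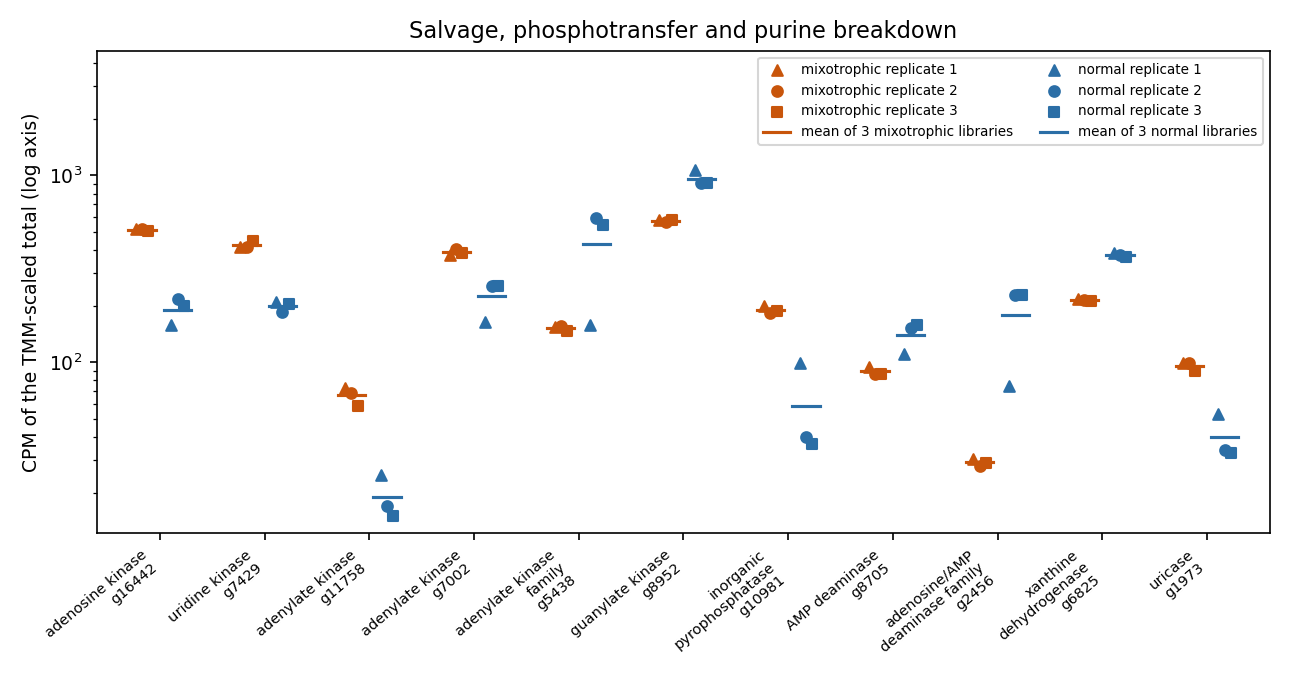
Levels in CPM of the TMM-scaled total (log axis) of salvage, phosphotransfer and purine breakdown transcripts, drawn as in the plot of the purine route. The transcript labelled uridine kinase (g7429) is of the phosphoribulokinase and uridine kinase family. This transcript, adenosine kinase, 2 adenylate kinases, the pyrophosphatase and uricase are above all normal cultures in mixotrophic ones. In contrast, guanylate kinase, AMP deaminase, the adenosine/AMP deaminase family transcript and xanthine dehydrogenase are below them.

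Normal replicate 1 bears on most of these values. Of the 45 members that rose over 4 libraries, its level lay between the 2 groups in 24, below all other libraries in 11, above all in 5 and within the range of a group in 5. Of the 18 that fell, it lay between the groups in 7, above all in 6, below all in 4 and within a range in 1. All 63 called members kept their sign over 6 libraries, and 46 of them had a smaller size there. Of the 81 members tested in both fits, 80 had the same sign.

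**Figure D5:**
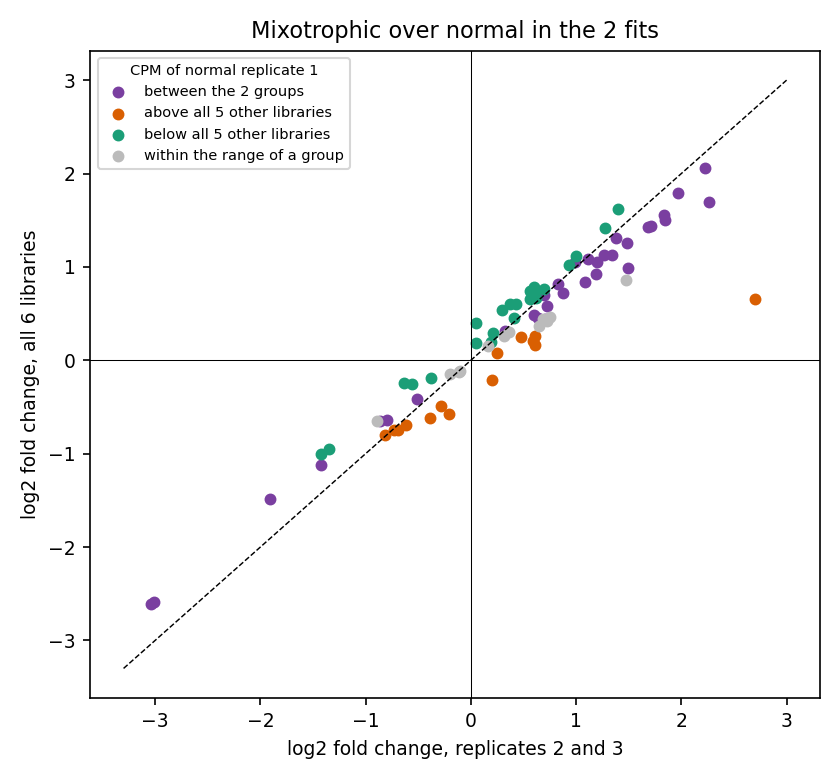
Mixotrophic over normal log2 fold changes of the 81 members tested in both fits, over replicates 2 and 3 (x axis) and over all 6 libraries (y axis), with the line of equality dashed. Colours give the place of normal replicate 1 among the libraries. Of the 63 members called over 4 libraries 46 are nearer to 0 on the y axis than on the x axis, and 80 of 81 points have the same sign on both axes.

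The 4 members low in replicate 1 of both conditions were g6590, g10241, g12983 and g6591, and all 4 had a higher annotation score against Arabidopsis than against *Chlamydomonas*, compared with 24 of 77 other counted members with a description. Phenylpropanoid and lignin transcripts were taken as markers of land plants, although the study reports a gene of this class, cinnamyl alcohol dehydrogenase, in the alga. They were counted for 42 of 45 entries, of which 31 belonged to the group low in replicate 1, against 878 of all 18310 transcripts. Their summed level was 607 to 1407 CPM in mixotrophic and 310.3 to 1552 CPM in normal libraries, lowest in replicate 1 of each. Light-harvesting transcripts, of which 7 of 32 also belonged to that group, summed to 14619 to 16256 CPM in mixotrophic and 9031 to 10810 CPM in normal libraries, with 30 counted. The part of transcripts from another organism in the results was not tested, and no called member belonged to the low group.

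Pathways that feed or use nucleotides were counted in the same fits. In the pentose phosphate pathway, the source of ribose phosphate, 10 of 18 transcripts rose (55.6%) and 1 fell (5.56%) over 4 libraries. Over 6, 5 rose (27.8%) and 0 fell by edgeR (0 lower at an unadjusted p under 0.05). The median log2 fold change was 0.35 in both fits. Histidine synthesis, which also starts from PRPP, had 5 of 7 higher (71.4%) and 0 lower over 4, and 3 (42.9%) and 0 over 6 by edgeR. At an unadjusted p under 0.05, 0 and 0 were lower, and the medians were 0.49 and 0.40. One-carbon metabolism, which supplies some of the carbons of the purine ring, had 6 higher and 6 lower of 18 over 4 (33.3% each). Over 6 it had 2 and 2 (11.1% each), and the medians were -0.14 and -0.060. DNA synthesis and chromatin structure, a user of deoxynucleotides, had 66 higher (30.6%) and 42 lower (19.4%) of 216 over 4. Over 6 it had 18 (8.37%) and 31 (14.4%) of 215, and the medians were 0.035 and -0.016. Of all transcripts, 28.6% were higher and 29.0% lower over 4 libraries, and 13.3% and 15.2% over 6. The shares of one-carbon metabolism were near these, as were those of DNA synthesis higher over 4 and lower over 6.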

How the data were processed

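RNA of 3 mixotrophic and 3 normal cultures was sequenced with a directional library kit on an Illumina HiSeq. The authors assembled the reads with Trinity, predicted genes with AUGUSTUS, aligned with Subread and deposited featureCounts counts per transcript, unnormalized, with MapMan BINs. Columns and sheets with the authors' own comparison and enrichment results (direction of change, fold changes, p-values) were not used. The labels also list BWA and DESeq2 without a version.

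Counts were fitted with edgeR 4.0.16 in R 4.3.3 (TMM scaling, filterByExpr with a minimum count of 10, quasi-likelihood F test, Benjamini-Hochberg adjustment), over replicates 2 and 3 and over all 6 libraries. The biological coefficient of variation was 4.64% and 35.5%. Scripts were tested on simulated data. Alternatives were DESeq2 1.42.0, other scalings and filters, a replicate block, summed components and left-out libraries. The flasks came from a divided preculture in repeated experiments, and p-values measure the spread between these samples.

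The members and lists were chosen with earlier results of these data known. Named were, per class, up to 3 higher and 3 lower called members with the smallest adjusted p over 4 libraries. Also named were, per BIN, the tested member with the highest mean CPM, and members opposite in, or called only in, the 6-library fit. Values of some further members were added outside this rule, among them g3286, g10241, g6590, g8705, g8707, g1903, g5104, g3511 and g9594. Counts of named transcripts leave these out. Deviations of same-numbered libraries from their group means correlated at 0.70, 0.63 and 0.54, but mixotrophic replicate 3 correlated at 0.68 with normal replicate 2, so that the values separate replicate 1 from the others. The block was run as an alternative, and the main fits have none. Without the 878 transcripts low in replicate 1 of both conditions the values were 0.12, 0.052 and 0.033.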

Additional observations from a re-analysis of the deposited data

How the results depend on the processing

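Counts of called members were within 1.5 times of the main ones under every alternative run on replicates 2 and 3, except that 10 were lower with all 6 libraries. For all transcripts, summing per component gave 2365 higher and 2373 lower, and all 6 libraries gave 1633 and 1874, against 3549 and 3593. With the replicate number as a block, members were 43 higher and 18 lower over 4 libraries and 26 and 7 over 6, and all transcripts 3327 and 3380, and 1228 and 1288. Over 4 libraries the log2 difference between replicates 2 and 3 in mixotrophic cultures correlated at -0.19 with that in normal cultures. Without the transcripts low in replicate 1 the value was -0.049. The crossed block gave 45 and 19 members. DESeq2 called 40 and 14 members over 4 libraries. Leaving out 1 library, the 6-library fit gave 18 to 43 members higher and 4 to 20 lower, and 641 to 3476 and 668 to 3527 of all transcripts. Among named transcripts, 28 of 54 lost or gained the 6-library call when 1 library was left out, and 6 did over 4 libraries. The small subunit transcript g11813 reversed when its component was summed, to 0.80 over 4 libraries and 0.72 over 6, since g11812 holds most of the counts. With 3 samples a group no test for outlying samples was run. Reads shared within a component, depth and the 32 uncounted members limit what these counts can show.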

Other observations

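Because carbamoyl phosphate also feeds arginine, the 9 transcripts of arginine synthesis were looked up after the fall of carbamoyl phosphate synthetase had been seen. Over 4 libraries 7 of the 8 tested were higher and none was lower, against 28.6% higher and 29.0% lower among all transcripts, and over 6 libraries, against 13.3% and 15.2%, 2 were higher and none lower by edgeR (0 and 0 lower at an unadjusted p under 0.05). Ornithine carbamoyltransferase (g4199), which uses carbamoyl phosphate for citrulline, had 205, 197 and 201 CPM in mixotrophic cultures, against 139, 71.2 and 62.9 CPM in normal cultures, a log2 fold change of 1.55 ± 0.089 (adjusted p = 4.99e-15) over 4 libraries and 1.14 ± 0.31 (adjusted p = 0.041) over 6. Argininosuccinate synthase (g2157), the following enzyme, had 252, 255 and 243 CPM in mixotrophic cultures, against 131, 52.9 and 39.7 CPM in normal cultures, with 2.43 ± 0.10 (adjusted p = 2.77e-18) over 4 libraries and 1.74 ± 0.45 (adjusted p = 0.035) over 6. Acetylglutamate kinase (g9716), an early step of ornithine synthesis, had 217, 219 and 210.0 CPM in mixotrophic cultures, against 148, 33.3 and 32.8 CPM in normal cultures, with 2.68 ± 0.10 (adjusted p = 2.7e-19) over 4 libraries and 1.58 ± 0.62 (adjusted p = 0.111) over 6. In these 3 genes normal replicate 1 was nearer to the mixotrophic cultures than normal replicates 2 and 3 were. It was the highest of all libraries for acetylornithine aminotransferase g10975 (323 CPM) and argininosuccinate lyase g12139 and g12143 (82.4 and 86.5 CPM). These rose over 4 libraries, at 1.16, 1.22 and 1.05, but were not called over 6. For g4964, also called higher over 4 libraries only, normal replicate 1 lay between the groups. Aspartate transcarbamoylase, which takes carbamoyl phosphate into pyrimidines, had no count.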
